A study of Mus musculus with 23 samples.

Results

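The comparison described here sets lung tumor cells that lost PGC1α against lung tumor cells that kept 1 working allele of its gene, *Ppargc1a*. It rests on 9 of the 23 RNA sequencing libraries of the series, chosen by their titles: 4 from BRAFV600E/PGC1αNull-driven tumors and 5 from BRAFV600E/PGC1αHet-driven tumors, all at 12 weeks post induction (p.i.). Every mouse was heterozygous for *Braf* CAT, a change of the gene at its own locus that CRE recombinase switches from wild-type to BRAFV600E and that marks the switched cells red with tdTomato. PGC1αNull mice were *Ppargc1a* lox/lox and PGC1αHet mice were their *Ppargc1a* lox/+ littermates, adults of matched age on a strain background mixing FVB, 129 and C57BL/6. Tumors were induced with Ad5-*Sftpc-CRE*, an adenovirus that restricts CRE to alveolar type 2 (AT2) pneumocytes, the surfactant-making cells of the alveolus, and tdTomato+ cells were flow sorted from the dissociated lungs. Of the PGC1αNull libraries 3 are labelled female and 1 male, and of the PGC1αHet libraries 3 female and 2 male. All 9 tumor samples thus shared BRAFV600E and at least 1 floxed *Ppargc1a* allele, and no group with 2 unmodified *Ppargc1a* alleles stands in this table. A second table of 14 libraries, used at the end to set another effect beside this one, holds 6 from *Braf* CAT/+ mice (5 labelled female and 1 male) and 8 from *Braf* CAT/+; *Pik3ca* HR/+ mice (3 female and 5 male), whose HR allele makes a mutationally activated PI3Kα. The labels do not say which library came from which mouse, so p-values here measure the spread between libraries.

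PGC1α, the product of *Ppargc1a*, is a transcriptional coactivator. It binds no DNA by itself but docks on nuclear receptors and other transcription factors, and it is best known for raising genes of mitochondrial respiration and fatty acid oxidation. Close relatives are PGC1β (*Ppargc1b*) and PRC (*Pprc1*). Orphan receptors that work with PGC1α, such as ERRα and NR5A2, read DNA sites built around the letters AAGGTCA. The cross was made to ask whether PGC1α helps BRAFV600E-driven tumor cells to keep their AT2 identity.

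Values are normalized counts, which are not scaled by transcript length, so levels are compared between libraries and never between genes. Of 35454 gene symbols in the table, 17424 had a mean of at least 10 over the 9 libraries and were tested with limma on log2(normalized count + 1). Library totals ranged from 7115753 to 9159567 and genes above 0 from 23661 to 26378. Pearson correlations of libraries over genes were 0.845 to 0.942 among PGC1αHet libraries, 0.788 to 0.912 among PGC1αNull libraries and 0.779 to 0.933 between the groups. A single predicted gene, *Gm10800*, took 2.95% to 10.3% of the counts in PGC1αHet and 3.47% to 14.4% in PGC1αNull libraries, and exceeded 10% in 3 libraries, PGC1αHet 1 and PGC1αNull 1 and 4. List medians whose sign turns without these libraries, which leaves 4 PGC1αHet and 2 PGC1αNull libraries, are given both ways. Of 4 genes on the Y chromosome, *Ddx3y* and *Eif2s3y* were low in the 6 libraries labelled female (9.50 to 22.6 and 5.26 to 41.2 normalized counts) and high in the 3 labelled male (125 to 324 and 348 to 482). *Kdm5d* (228 to 962 against 1291 to 1941) and *Uty* (109 to 582 against 579 to 945) were well above 0 in the libraries labelled female too, and the ranges of *Uty* touched.

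The label of AT2-derived tumor cells was checked first. The 47 measured AT2 markers took 7.90% to 10.8% of all counts in PGC1αHet and 6.14% to 10.3% in PGC1αNull libraries. *Epcam*, an epithelial adhesion molecule, lay between 1384 and 2014 normalized counts in PGC1αHet and between 1176 and 2852 in PGC1αNull libraries. RNA of other cells was present too: *Ptprc*, the pan-leukocyte CD45, and *Pecam1*, the endothelial CD31, were above 0 in all 9 libraries. The sort was gated on tdTomato, and the methods name no depletion of CD45+ or CD31+ cells. Here, as in any bulk sample, a change in the number of cells of a type and a change in RNA per cell cannot be told apart.

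*Ppargc1a* was lower in PGC1αNull cells but was not absent. Normalized counts were 75.8, 170.2, 155, 199.5 and 561 in PGC1αHet libraries 1 to 5 and 72.7, 38.02, 51.6 and 124 in PGC1αNull libraries 1 to 4. All 4 PGC1αNull libraries lay under the PGC1αHet mean of 232 ± 189 (SD, n = 5), yet PGC1αNull library 4 lay above PGC1αHet library 1, so the groups overlapped. The log2 fold change was -1.51 (SE 0.50, 95% interval -2.60 to -0.42), a level 2.84-fold lower. The exact permutation test gave p = 0.0317 (two-sided), where the smallest value this test can give with 5 and 4 libraries is 0.0159, and limma over all genes gave an adjusted p of 0.978. The log2 fold change was -1.11 without PGC1αHet library 5 and -1.83 without PGC1αHet library 1, and the exact p ran from 0.0286 to 0.0714 as each library was left out in turn, lying above 0.05 unless the library left out was PGC1αHet library 1 or PGC1αNull library 4. *Ppargc1a* spans chr5:51454249-52115853 (GRCm38.p6). Which exons the floxed allele loses is not given in the sources used here, and a gene-level value can include reads of the exons that remain.

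The relatives and partners of PGC1α showed small differences. *Ppargc1b* had 26.5, 22.4, 47.6, 15.2 and 43.8 normalized counts in PGC1αHet and 57.1, 39.7, 20.6 and 62.7 in PGC1αNull libraries. *Pprc1* had 398, 327, 387, 505 and 414 against 272, 299, 404 and 175. Both overlapped between the groups, with log2 fold changes of 0.52 (95% interval -0.51 to 1.56) and -0.55 (95% interval -1.10 to 0.01). *Rxra*, which encodes RXRα, the obligate partner of many nuclear receptors, had 147, 103, 123, 176 and 107 normalized counts in PGC1αHet and 305, 206, 189 and 164 in PGC1αNull libraries. Only PGC1αHet library 4 reached into the PGC1αNull range, and the log2 fold change was 0.70 (SE 0.27, unadjusted p = 0.0227, adjusted p = 0.998 with limma). Of the 26 coactivators and partners tested, 1 was higher at an unadjusted p under 0.05 (*Rxra*, against 2.66% of all genes) and 1 lower (*Ppargc1a*, against 1.17%), and the median log2 fold change of the list was -0.08. *Esrra*, encoding ERRα, differed by 0.16, *Pparg* by 0.48 and *Hnf4a* by -0.08 on the log2 scale, each with an interval that included 0. *Nr5a2* was scarcely detected, at 3.26 to 31.7 normalized counts in PGC1αHet and 2.92 to 20.4 in PGC1αNull libraries. *Nrip1*, encoding a corepressor of nuclear receptors, was at a log2 fold change of -0.56 (95% interval -1.20 to 0.09).

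**Figure D1:**
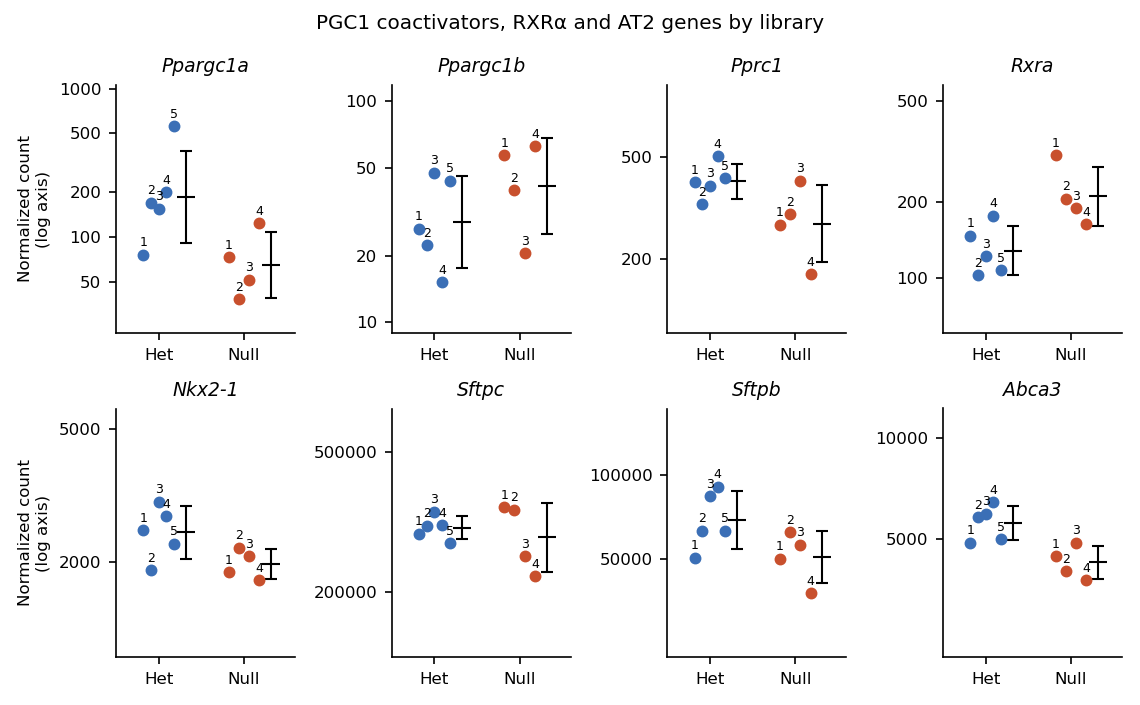
Normalized counts on a log axis in each of the 9 libraries, numbered as in the labels, for the PGC1 coactivators, *Rxra* and AT2 genes, with the mean ± SD of log2(normalized count + 1) of each group as a bar. *Ppargc1a* ran from 75.8 to 561 in PGC1αHet and from 38.02 to 124 in PGC1αNull libraries, while the PGC1αNull range of *Sftpc* enclosed that of PGC1αHet.

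Over all genes, no difference passed the threshold. At a Benjamini-Hochberg adjusted p under 0.05, limma called 0 of 17424 genes (0%), and the smallest adjusted p was 0.152. With libraries weighted by their spread limma called 3 genes, *S1pr1*, *Ptprb* and *Aqp1*, and without the 3 libraries rich in *Gm10800* it called 1, the immunoglobulin gene *Ighg2c*. At an unadjusted p under 0.05 there were 667 genes, of which 464 were higher in PGC1αNull cells (2.66% of the genes tested) and 203 lower (1.17%). The 667 are 3.83% of the genes tested, a smaller share than a threshold of 0.05 lets through on average where no gene differs. A share of 69.6% higher became 57.7% after quantile normalization (424 higher and 311 lower). In 164 genes (0.941%) every PGC1αNull library lay above every PGC1αHet library, and in 80 (0.459%) every PGC1αNull library lay below. Chance alone separates 5 and 4 libraries, in either direction, with a probability of 0.0159. The filter used the mean of all 9 libraries, and 554 genes (3.18%) with a PGC1αHet mean under 10 met it through the PGC1αNull libraries alone. These had to lie higher, and they make up 88 of the 464 genes and 45 of the 164. Medians, mean levels and counts of higher genes given for the lists include such members. The median log2 fold change of all genes was 0.01, and the distance from a log2 fold change to either end of its 95% interval had a median of 0.83.

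**Figure D2:**
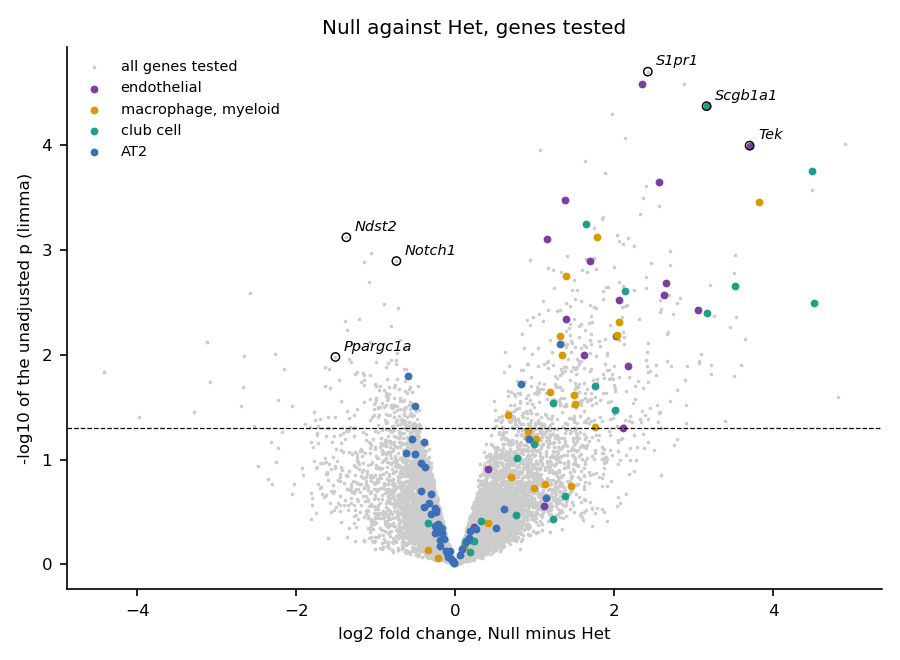
Each of the 17424 genes tested is a point, with its log2 fold change (PGC1αNull minus PGC1αHet) against -log10 of its unadjusted p from limma, and the dashed line marks the unadjusted threshold of 0.05. Endothelial, macrophage and club cell markers spread to the upper right, and no point passes an adjusted p of 0.05. AT2 markers run from -0.62 to 1.32 with a median of -0.19, and 2 higher and 2 lower ones pass the dashed line.

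AT2 markers leaned lower without a clear separation of the groups. Of 47 tested, 35 were lower and 12 higher in PGC1αNull cells, with a median log2 fold change of -0.19 against 0.01 for all genes. At an unadjusted p under 0.05, 2 were lower (background 1.17%) and 2 higher (2.66%), and 0 were called. The mean log2 level of the list was 10.96, 10.86, 11.15, 11.24 and 10.82 in PGC1αHet and 11.09, 11.23, 10.78 and 10.67 in PGC1αNull libraries. The groups interleaved, with PGC1αNull library 2 near the top and library 4 lowest of all. The median ran from -0.29 to -0.05 as single libraries were left out, and was -0.05 without the 3 libraries rich in *Gm10800*. With all libraries, housekeeping genes leaned the same way, with 11 of 14 lower, 3 higher and a median of -0.11. Genes of vessels, leukocytes and stroma, described further on, were higher in the same libraries (80 of 85). Their part in the AT2 values was not tested.

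The surfactant genes themselves overlapped between genotypes. *Sftpc*, whose product lowers surface tension in the alveolus, had 293050, 308780, 337890, 309430 and 275800 normalized counts in PGC1αHet and 348420, 342700, 252750 and 222450 in PGC1αNull libraries. Libraries PGC1αNull 1 and 2 were the highest of all 9 and 3 and 4 the lowest, and the log2 fold change was -0.09 (95% interval -1.04 to 0.86). *Sftpb* had 50628, 63198, 83977, 90841 and 63324 against 50250, 62309, 56369 and 37950, for a log2 fold change of -0.44 (95% interval -1.14 to 0.26, exact permutation p = 0.0794). *Sftpa1*, a collectin of innate defence, differed by -0.11 (95% interval -0.86 to 0.64).

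A few AT2 genes came closer to a separation. *Abca3*, the lipid pump of the lamellar body, had 4887, 5828, 5959.6, 6439.5 and 5002 normalized counts in PGC1αHet and 4458, 4019, 4881 and 3788 in PGC1αNull libraries. Each PGC1αNull library lay below each PGC1αHet library, by a margin of only a few counts at the edge, and the log2 fold change was -0.39 (95% interval -0.81 to 0.03, exact permutation p = 0.0159, adjusted p = 0.998 with limma). Here and below, an exact p of 0.0159 is the smallest this test can give with 5 and 4 libraries. Such a value restates the lack of overlap and adds no further evidence. *Ppp1r14c*, encoding a phosphatase inhibitor, had 1126, 944, 1441, 1295 and 893 against 682, 832, 884 and 601, again without overlap, with a log2 fold change of -0.60 (SE 0.22, unadjusted p = 0.0161). *Ank3*, encoding the membrane adaptor ankyrin-G, was at -0.51 (SE 0.21, unadjusted p = 0.0307), with 1 overlap at the boundary, and *Napsa*, the aspartic protease that processes surfactant protein B, at -0.55 (95% interval -1.13 to 0.04).

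In the opposite direction, *Lyz1*, encoding a lysozyme, had 173, 121, 110 and 246 normalized counts in PGC1αHet libraries 1 to 4, 161 in library 5, and 586, 805, 164 and 293 in PGC1αNull libraries. PGC1αNull libraries 1, 2 and 4 exceeded all of the PGC1αHet libraries and library 3 did not, for a log2 fold change of 1.32 (SE 0.42, exact permutation p = 0.0476, adjusted p = 0.879 with limma). *Lyz1* and *Lyz2* are near copies, and estimates for short reads may be shared out between them. *Lyz2* itself ran from 31653 to 44478 in PGC1αHet and from 34508 to 50359 in PGC1αNull libraries, with a log2 fold change of 0.06. *Itih4*, encoding an inhibitor heavy chain found in plasma, was 52.9 to 60.7 in PGC1αHet and 71.8 to 157 in PGC1αNull libraries, without overlap. *Lcn2* (-0.25), *Bex2* (-0.05) and *Dlk1* (0.51) overlapped, and *Dlk1* ran from 116 to 1972 within the PGC1αNull group alone.

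Transcription factors that maintain the lung lineage overlapped between the groups as well. *Nkx2-1*, the master factor of lung epithelium, had 2497, 1897, 3035, 2754 and 2276 normalized counts in PGC1αHet and 1867, 2212, 2088 and 1767 in PGC1αNull libraries. Its log2 fold change was -0.32 (95% interval -0.75 to 0.11, exact permutation p = 0.0635), and PGC1αHet library 2 lay inside the PGC1αNull range. *Foxa1* and *Foxa2*, forkhead factors that act beside *Nkx2-1*, were at -0.14 (95% interval -0.70 to 0.41) and -0.29 (95% interval -0.80 to 0.22). Of 23 factors tested, the 1 with an unadjusted p under 0.05 was *Erg* (log2 fold change 1.52), a factor of endothelial cells, and the median of the list was -0.04 (0.05 without the 3 libraries rich in *Gm10800* and -0.09 without PGC1αNull library 2). Alveolar type 1 (AT1) markers, of the thin gas-exchange cell, had a median of -0.03 over 29 genes (0.20 without the 3 libraries rich in *Gm10800* and -0.16 without PGC1αNull library 2), with *Rtkn2* at 1.31 and *Scnn1b*, a subunit of the epithelial sodium channel, at -0.92. The transitional state between AT2 and AT1 cells had 19 of 22 markers lower and a median of -0.19, 1 of them at an unadjusted p under 0.05 (background 1.17%). That lean changed with the libraries used: the median was 0.24 without the 3 libraries rich in *Gm10800* and 0.03 without PGC1αNull library 4, while without PGC1αNull library 2 it was -0.48 with 6 markers lower at that p. In that last fit 419 of all 17424 genes were lower at that p, against 203 with all libraries. The transitional marker *Itgb6*, encoding the β6 integrin chain, was at -1.08 with all libraries (unadjusted p = 0.0421), but at 0.16 without the 3 libraries rich in *Gm10800*.

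To show where the AAGGTCA letters lie near genes of these groups, the 250 bases before the start of 5 genes are printed 5′ to 3′ on the gene's strand, with AAGGTCA, or its reverse complement TGACCTT, in capitals. They are the surfactant gene *Sftpa1* and *Lyz1* for AT2 cells, *Cyp2f2* and *Fmo2*, detoxifying oxidases of club cells, and *Acadm*, a fatty acid oxidation enzyme. They are credited to RefSeq (GRCm38.p6), and *Cyp2f2*, *Fmo2* and *Acadm* fall outside the rule for named genes and were chosen because their windows hold the letters. The windows are chr3:153944644-153944893 on the minus strand for *Acadm*, chr14:41131538-41131787 on the plus strand for *Sftpa1*, chr10:117292869-117293118 on the minus strand for *Lyz1*, chr7:27119705-27119954 on the plus strand for *Cyp2f2* and chr1:162898494-162898743 on the minus strand for *Fmo2*.
Acadm: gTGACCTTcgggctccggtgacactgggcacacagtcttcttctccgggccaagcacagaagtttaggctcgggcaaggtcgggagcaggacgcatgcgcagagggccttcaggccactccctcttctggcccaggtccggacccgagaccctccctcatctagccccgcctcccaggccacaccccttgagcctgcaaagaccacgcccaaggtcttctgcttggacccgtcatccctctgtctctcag
Sftpa1: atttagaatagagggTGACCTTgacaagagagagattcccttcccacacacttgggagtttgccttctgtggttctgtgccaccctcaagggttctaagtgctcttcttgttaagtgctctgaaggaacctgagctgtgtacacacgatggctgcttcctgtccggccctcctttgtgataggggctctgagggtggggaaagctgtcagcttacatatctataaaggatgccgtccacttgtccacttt
Lyz1: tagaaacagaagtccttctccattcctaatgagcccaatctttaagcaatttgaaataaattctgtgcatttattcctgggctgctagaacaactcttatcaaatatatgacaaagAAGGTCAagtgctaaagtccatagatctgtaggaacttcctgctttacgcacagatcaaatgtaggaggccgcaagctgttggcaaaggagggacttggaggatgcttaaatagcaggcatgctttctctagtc
Cyp2f2: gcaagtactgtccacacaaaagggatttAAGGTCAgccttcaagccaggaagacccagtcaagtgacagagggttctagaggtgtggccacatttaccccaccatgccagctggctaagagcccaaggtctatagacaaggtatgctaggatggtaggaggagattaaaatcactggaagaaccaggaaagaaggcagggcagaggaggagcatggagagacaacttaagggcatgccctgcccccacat
Fmo2: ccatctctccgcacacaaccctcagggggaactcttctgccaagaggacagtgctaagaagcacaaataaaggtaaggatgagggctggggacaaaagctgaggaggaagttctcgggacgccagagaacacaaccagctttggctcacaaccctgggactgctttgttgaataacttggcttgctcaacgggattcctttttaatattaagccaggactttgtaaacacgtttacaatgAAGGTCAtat
Read on both strands, the letters occurred in 4.08% of all 32851 promoters of the table. Counted by gene symbol, as for the lists, they occurred in 4.7% of the 27025 symbols with a promoter and in 3.73% of the 12334 tested genes with one. Among list genes with a promoter they occurred in 3 of 40 AT2 markers (7.5%), 2 of 21 club cell markers (9.52%), 2 of 34 ciliated cell markers (5.88%), 1 of 25 fatty acid oxidation genes (4.0%) and 5 of 64 nuclear respiratory chain genes (7.81%). Of the 5 genes printed, *Lyz1* was at a log2 fold change of 1.32, *Cyp2f2* at 0.33 (unadjusted p = 0.387), *Fmo2* at 0.23, *Sftpa1* at -0.11 and *Acadm* at -0.19, so genes that share the letters stood on both sides of 0. A match of 7 letters is a description of the sequence and not evidence of binding.

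Genes of the respiratory chain, the best-known targets of PGC1α, had a median near 0. Of 77 nuclear-encoded subunits tested, 46 were lower and 31 higher in PGC1αNull cells, 0 passed an unadjusted p of 0.05 in either direction, and the median log2 fold change was -0.04. By complex the medians were -0.05 for complex I (NADH dehydrogenase, 36 genes), -0.05 for complex II (succinate dehydrogenase, 4 genes), -0.02 for complex III (9 genes), -0.04 for complex IV with cytochrome c (13 genes) and 0.00 for complex V (ATP synthase, 15 genes). Without the 3 libraries rich in *Gm10800* all 5 medians were above 0, from 0.09 to 0.26, and without PGC1αNull library 2 all 5 were below 0, from -0.20 to -0.11, with 2 complex V genes lower at an unadjusted p under 0.05. Without that library 419 of all 17424 genes were lower at that p, against 203 with all libraries. Mean list levels overlapped for every complex, and those of complex I were 7.18, 7.16, 7.30, 7.07 and 6.86 in PGC1αHet and 6.98, 7.35, 7.10 and 6.81 in PGC1αNull libraries. The highest and the lowest of these levels both belong to PGC1αNull libraries. *Ndufb4*, an accessory subunit of complex I, had 29.3, 32.9, 22.3, 31.4 and 19.7 normalized counts in PGC1αHet and 15.04, 18.94, 15.06 and 8.50 in PGC1αNull libraries, the only nuclear subunit of 77 without overlap (0.459% of all genes lay wholly below). Its log2 fold change was -0.89 (SE 0.46, unadjusted p = 0.0726).

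The 13 respiratory genes of the mitochondrial genome leaned the other way, with 12 higher, a median log2 fold change of 0.19 and none past an unadjusted p of 0.05. Their share of counts was 1.17% to 2.14% in PGC1αHet and 1.52% to 1.68% in PGC1αNull libraries, so the PGC1αNull range lay inside that of the controls. The median was 0.02 without the 3 libraries rich in *Gm10800*.

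Fatty acid oxidation genes had a median of -0.13 over 25 genes, 19 of them lower. The median was 0.00 without those 3 libraries and -0.31 without PGC1αNull library 2, where 3 were lower at an unadjusted p under 0.05 (419 of all 17424 genes were in that fit). *Acsl1*, which activates long-chain fatty acids, was the 1 member of 25 without overlap (0.941% of all genes lay wholly above). It lay higher, with 111, 96.1, 147, 155 and 180 normalized counts in PGC1αHet against 195, 250, 244 and 283 in PGC1αNull libraries. Its log2 fold change was 0.84 (SE 0.26, exact permutation p = 0.0159, adjusted p = 0.840 with limma). *Pdk4*, a kinase that spares glucose by shutting pyruvate dehydrogenase and a textbook PGC1α target, had 759, 601, 579, 554 and 315 against 55.0, 1196, 216 and 41.5. PGC1αNull libraries 1, 3 and 4 lay below all controls and library 2 above them all, for a log2 fold change of -1.78 (SE 0.76, unadjusted p = 0.0350). That value was -2.75 without PGC1αNull library 2 and 0.03 without the 3 libraries rich in *Gm10800*.

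Other mitochondrial and metabolic lists had medians close to 0. The medians were -0.10 for the tricarboxylic acid cycle (20 genes), -0.14 for mitochondrial DNA maintenance and dynamics (25 genes), -0.05 for mitochondrial ribosomal proteins (39 genes), -0.10 for glycolysis (19 genes), 0.04 for SREBP lipid and cholesterol synthesis (30 genes) and -0.03 for NRF2 and antioxidant defence (28 genes). Housekeeping genes, set beside them for scale, were at -0.11. Without the 3 libraries rich in *Gm10800* these medians turned to 0.05 for the tricarboxylic acid cycle, 0.13 for mitochondrial DNA maintenance, 0.12 for mitochondrial ribosomal proteins, 0.18 for glycolysis, 0.04 for antioxidant defence and 0.18 for housekeeping genes. Without PGC1αNull library 2 they were further below 0, at -0.17, -0.29, -0.13, -0.25, -0.14 and -0.26 in the same order. *Mpc1*, a subunit of the mitochondrial pyruvate carrier, was at -0.55 (95% interval -1.12 to 0.02), *Tfam*, which packages mitochondrial DNA, at -0.42 (95% interval -0.96 to 0.12), and *Tomm40*, the import channel of the outer membrane, at -0.44 (95% interval -0.97 to 0.10) without overlap. *Gpx3*, encoding a secreted glutathione peroxidase, was at 1.56 (SE 0.58, unadjusted p = 0.0188).

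Most club cell markers of the airway epithelium stood higher in PGC1αNull cells (20 of 25), although none was called. *Scgb1a1*, the club cell secretory protein, had 252, 370.1, 438, 355 and 1363 normalized counts in PGC1αHet and 2761, 12565, 2306 and 3526 in PGC1αNull libraries. All 4 PGC1αNull libraries lay above all 5 controls, PGC1αHet library 5 being the nearest. The log2 fold change was 3.16 (SE 0.52, 95% interval 2.03 to 4.30), a level 8.96-fold higher, with an exact permutation p of 0.0159 and an adjusted p of 0.177 with limma. *Scgb3a2*, a secretoglobin of small airways, had 0, 4.66, 4.84, 2.72 and 12.7 against 84.2, 463, 28.8 and 80.9. The groups did not overlap, but the gene met the filter through the PGC1αNull libraries alone, so its test is not given. *Cbr2*, carbonyl reductase 2 of club cells, had 234, 279, 534, 246 and 370.2 against 1145, 1966, 513 and 847, with 1 crossing at the edge and a log2 fold change of 1.65 (SE 0.36, adjusted p = 0.427 with limma).

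Over the whole club cell list, 20 of 25 markers were higher, 10 at an unadjusted p under 0.05 (2.66% of all genes were) and 4 without overlap (0.941% of all genes were). Of these, 2 of the 10 and 1 of the 4 met the filter through the PGC1αNull libraries alone. None was lower at that p, and none was called. The median log2 fold change was 0.99. Mean list levels were 6.17, 6.32, 6.34, 6.38 and 6.41 in PGC1αHet and 7.48, 9.11, 6.96 and 7.02 in PGC1αNull libraries, so the groups did not overlap and PGC1αNull library 2 stood highest. The median and these levels include 3 members that met the filter through the PGC1αNull libraries alone. The separation without them was not tested. Without PGC1αNull library 2 the median was 0.26, with 7 markers higher and 1 lower at an unadjusted p under 0.05 (580 and 419 of all 17424 genes were in that fit), and without the 3 libraries rich in *Gm10800* it was 1.56. *Bpifb1*, a secreted airway defence protein, showed the weight of that library with 162, 1045, 124 and 14.7 normalized counts in PGC1αNull against 5.21 to 27.3 in PGC1αHet libraries. *Cyp2f2*, an abundant P450 enzyme of club cells, was not among the higher genes at that p and overlapped, with 770 to 1879 normalized counts in PGC1αHet and 917 to 3375 in PGC1αNull libraries. The genes of vessels, leukocytes and stroma described further on were higher in the same libraries (80 of 85 markers), and their part in the airway values was not tested. Summed club cell counts made up 0.0856% to 0.120% of PGC1αHet and 0.127% to 0.432% of PGC1αNull libraries.

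Ciliated cell markers had 20 of 25 higher and a median of 0.46, with 2 at an unadjusted p under 0.05 (background 2.66%), and the mean levels of the list overlapped between the groups. Without the 3 libraries rich in *Gm10800* the median was 0.21 and 0 were at that p, and 0 of the 13 markers with a mean of at least 40 were. *Foxj1*, the master factor of motile cilia, had 0, 5.23, 1.83, 4.43 and 24.5 normalized counts in PGC1αHet and 34.2, 25.3, 15.2 and 36.9 in PGC1αNull libraries. All but PGC1αHet library 5 lay below the PGC1αNull range. *Foxj1* and *Dnaic1*, a dynein chain of the cilium, were the 2 members at that p, and both met the filter through the PGC1αNull libraries alone. Of the 4 basal cell markers tested, 3 were higher and none passed an unadjusted p of 0.05.

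**Figure D3:**
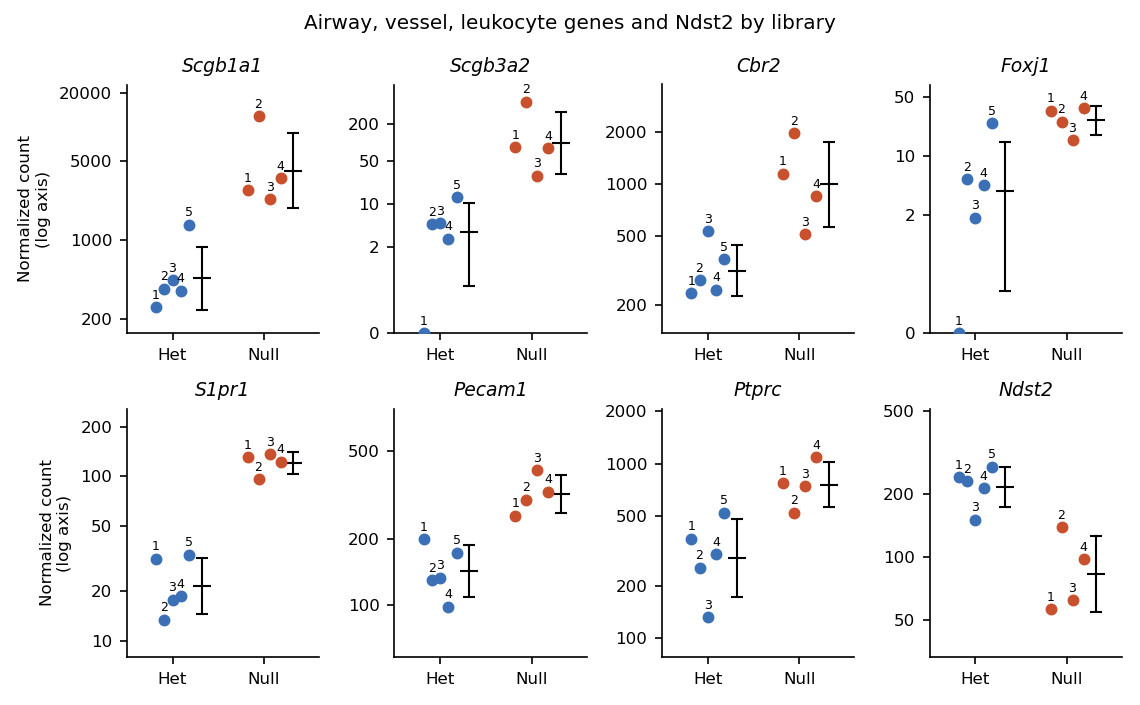
Normalized counts on a log axis in each of the 9 libraries, numbered as in the labels, with the mean ± SD of log2(normalized count + 1) of each group as a bar. *Scgb1a1* ran from 252 to 1363 in PGC1αHet and from 2306 to 12565 in PGC1αNull libraries, *S1pr1*, *Pecam1* and *Ptprc* were higher in all PGC1αNull libraries, and *Ndst2* lower in all of them.

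Most markers of vessels, leukocytes and stroma stood higher in PGC1αNull libraries as well (80 of 85), again with none called. The 3 genes with the smallest p of the whole table were *S1pr1*, *Ptprb* and *Aqp1*, each with an adjusted p of 0.152 with limma. *S1pr1*, a sphingosine phosphate receptor of vessel walls and lymphocytes (chr3:115710433-115715055), had 31.6, 13.4, 17.7, 18.7 and 33.3 normalized counts in PGC1αHet and 131, 95.8, 136 and 123 in PGC1αNull libraries. The groups lay far apart, with a log2 fold change of 2.42 (SE 0.37). *Ptprb*, the endothelial phosphatase VE-PTP, was at 2.35 and *Aqp1*, a water channel of capillaries, at 2.88. When libraries were weighted by their own spread, these 3 genes passed, with adjusted p of 0.0341, 0.0341 and 0.0356.

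Among endothelial markers, 18 of 18 tested were higher, 14 at an unadjusted p under 0.05 (background 2.66%) and 6 without overlap (0.941%), of which 2 of the 14 and 1 of the 6 met the filter through the PGC1αNull libraries alone. The median log2 fold change was 2.04. *Pecam1* had 199.9, 130.4, 134, 98.7 and 173 normalized counts in PGC1αHet and 254, 300.4, 409.5 and 327 in PGC1αNull libraries, and the groups did not overlap (log2 fold change 1.15, SE 0.26). *Tek*, the angiopoietin receptor TIE2, was at 3.71 and *Cdh5*, VE-cadherin, at 2.57. Mean levels of the list were 4.49 to 6.26 in PGC1αHet and 6.68 to 7.28 in PGC1αNull libraries, with PGC1αHet library 5 the nearest. The 18 higher, the median and these levels include the 2 members that met the filter through the PGC1αNull libraries alone.

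Macrophage and myeloid markers had 21 of 23 higher, 12 at an unadjusted p under 0.05 (background 2.66%), 4 without overlap (0.941%) and a median of 1.20. Mean levels of the list overlapped, at 5.09 to 7.25 in PGC1αHet and 6.75 to 8.01 in PGC1αNull libraries. The 12 became 7 without PGC1αHet library 3, 7 without PGC1αNull library 1 and 6 without the 3 libraries rich in *Gm10800*, where the median was 1.30. *Ptprc* had 371, 253, 131, 304 and 525 normalized counts in PGC1αHet and 776, 525, 746 and 1094 in PGC1αNull libraries, with the highest control, library 5, all but level with PGC1αNull library 2. Its log2 fold change was 1.40 (SE 0.36, adjusted p = 0.577 with limma). *Fabp4*, a fatty acid binding protein of alveolar macrophages and capillaries, ran from 0.436 to 27.8 against 56.6 to 179 normalized counts and met the filter through the PGC1αNull libraries alone, while *Laptm5*, a lysosomal protein of leukocytes, was at a log2 fold change of 1.78. Lymphocyte markers were higher in 15 of 16 with a median of 0.72 and 4 at an unadjusted p under 0.05 (background 2.66%, and 2 without PGC1αNull library 4). Of the 4, *Gzma*, granzyme A, at 0 to 6.09 against 11.6 to 69.5 normalized counts, met the filter through the PGC1αNull libraries alone. It was also the 1 member of that list without overlap (0.941%). Neutrophil markers were higher in 8 of 9 with a median of 0.44 and none past an unadjusted p of 0.05.

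Fibroblast and smooth muscle markers were higher in 18 of 19, 9 at an unadjusted p under 0.05 (background 2.66%), with a median of 1.26. PGC1αNull library 2 stood highest, with a list level of 7.10 against 5.78 to 5.81 in the other PGC1αNull libraries, and without it the median was 0.86 with 5 at that p. *Dcn*, the matrix proteoglycan decorin, had 73.6, 50.6, 41.7, 23.4 and 88.0 normalized counts in PGC1αHet and 176, 498, 81.9 and 183 in PGC1αNull libraries. *Upk3b*, a marker of mesothelium, was at 0 to 9.82 against 12.4 to 312 and met the filter through the PGC1αNull libraries alone. Taken over the 5 lists of vessels, leukocytes and stroma, 80 of 85 genes were higher, 39 at an unadjusted p under 0.05 (background 2.66%) and 12 without overlap (0.941%), with a median of 1.30. Of these, 5 of the 39 and 4 of the 12 met the filter through the PGC1αNull libraries alone. The mean level of the 85 genes was 4.57 to 6.04 in PGC1αHet and 6.44 to 6.63 in PGC1αNull libraries. The same 5 are among the 80 higher genes and count in the median and the mean level. Red cell markers, by contrast, overlapped, with a median of 0.31 over 8 genes (-0.04 without PGC1αHet library 4) and PGC1αHet library 3 highest.

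**Figure D4:**
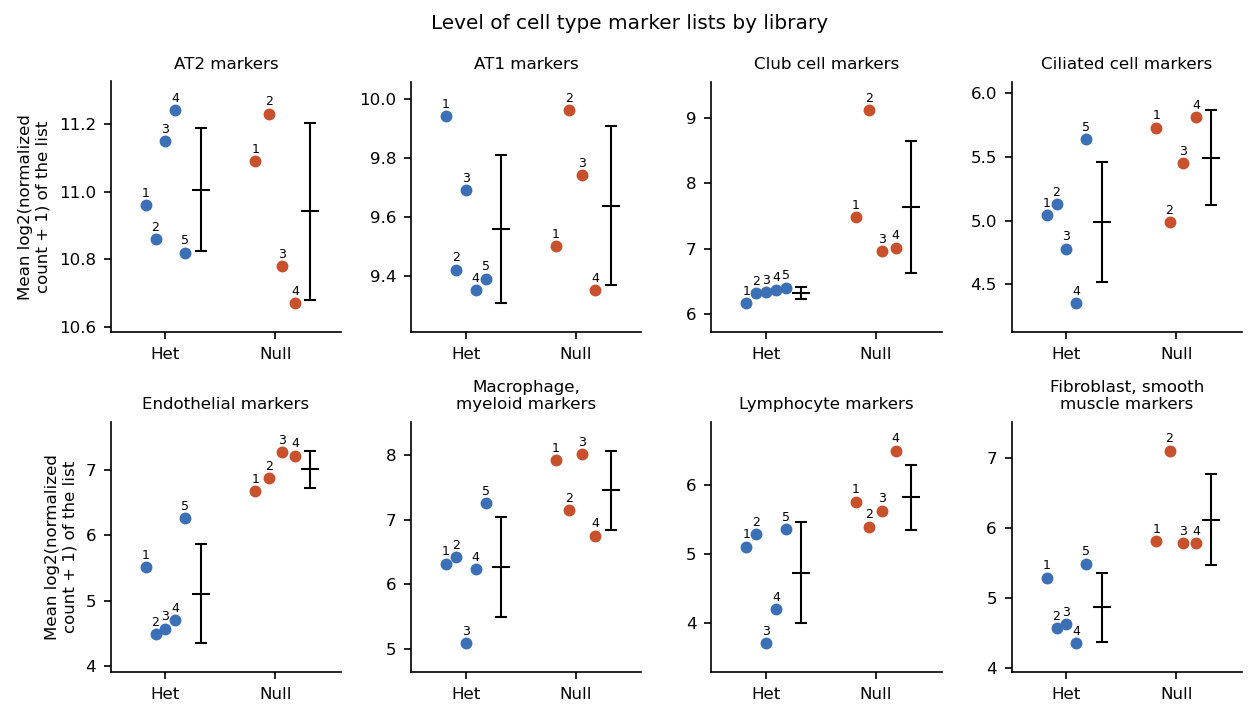
The mean log2(normalized count + 1) of 8 marker lists in each library, numbered as in the labels, with the group mean ± SD as a bar. AT2 and AT1 levels overlap, while endothelial (4.49 to 6.26 against 6.68 to 7.28) and club cell levels (6.17 to 6.41 against 6.96 to 9.11) do not. The latter 2 lists hold 2 and 3 members that met the filter through the PGC1αNull libraries alone.

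Epithelial to mesenchymal transition (EMT) genes were read beside these cell types. Of 46 tested, 31 were higher, 6 of them at an unadjusted p under 0.05 (background 2.66%) with 1 lower (1.17%), and 4 were without overlap (0.941%), for a median of 0.33. Of the 6, 2 met the filter through the PGC1αNull libraries alone. Without PGC1αNull library 2 the median was 0.15 with 4 higher at that p, and without PGC1αHet library 4 it was 0.21. The 4 were *Postn*, periostin (15.1 to 28.5 against 64.1 to 98.3 normalized counts, log2 fold change 1.88), *Vim*, vimentin (120 to 413 against 509.5 to 1313, 1.74), *Acta2*, smooth muscle actin (9.69 to 26.4 against 49.6 to 186, 2.12), and *Zeb1*, a repressor of epithelial genes (89.2 to 162 against 177 to 321, 0.98). No gene of this list stands in the lists of vessels, leukocytes or stroma, but fibroblasts, smooth muscle and leukocytes also make vimentin, periostin or actin. The 85 genes of other cell types stood higher in the same libraries (80 of 85, list level 4.57 to 6.04 against 6.44 to 6.63, with *Ptprc*, *Pecam1* and *Col1a1* above 0 in all 9), and their part in the EMT and interferon values was not tested.

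Interferon-stimulated genes were higher in 33 of 41, with a median of 0.29 and 3 at an unadjusted p under 0.05 (background 2.66%), which ran from 2 (without PGC1αHet library 2 or 3 or PGC1αNull library 1 or 3) to 5 (without PGC1αHet library 1 or PGC1αNull library 4). The 3 were the guanylate binding proteins *Gbp3* (1.71), *Gbp7* (0.86) and *Gbp2* (1.03). Major histocompatibility class II genes had a median of 0.09 (-0.06 without the 3 libraries rich in *Gm10800*). Cell cycle genes had a median of 0.05 over 40 genes (-0.08 without PGC1αHet library 5), with 2 lower at that p (background 1.17%), *Bub1b*, a spindle checkpoint kinase (-1.21, without overlap), and *Aurka*, aurora kinase A (-1.34). Outputs of the MAPK pathway downstream of BRAF had a median of -0.16 and the unfolded protein response -0.13, with none past an unadjusted p of 0.05 in either. Both medians turned without the 3 libraries rich in *Gm10800*, to 0.03 and 0.12, and were -0.28 and -0.29 without PGC1αNull library 2. Immediate early genes of dissociation stress were at -0.11 (0.07 without PGC1αNull library 3, and -0.36 with 2 lower at that p without PGC1αNull library 2, where 419 of all 17424 genes were). Of 13 gut lineage genes, *Fabp1*, the liver fatty acid binding protein, was at 0.911 to 8.48 against 17.1 to 44.7 normalized counts and met the filter through the PGC1αNull libraries alone, and none of the others passed an unadjusted p of 0.05.

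**Figure D5:**
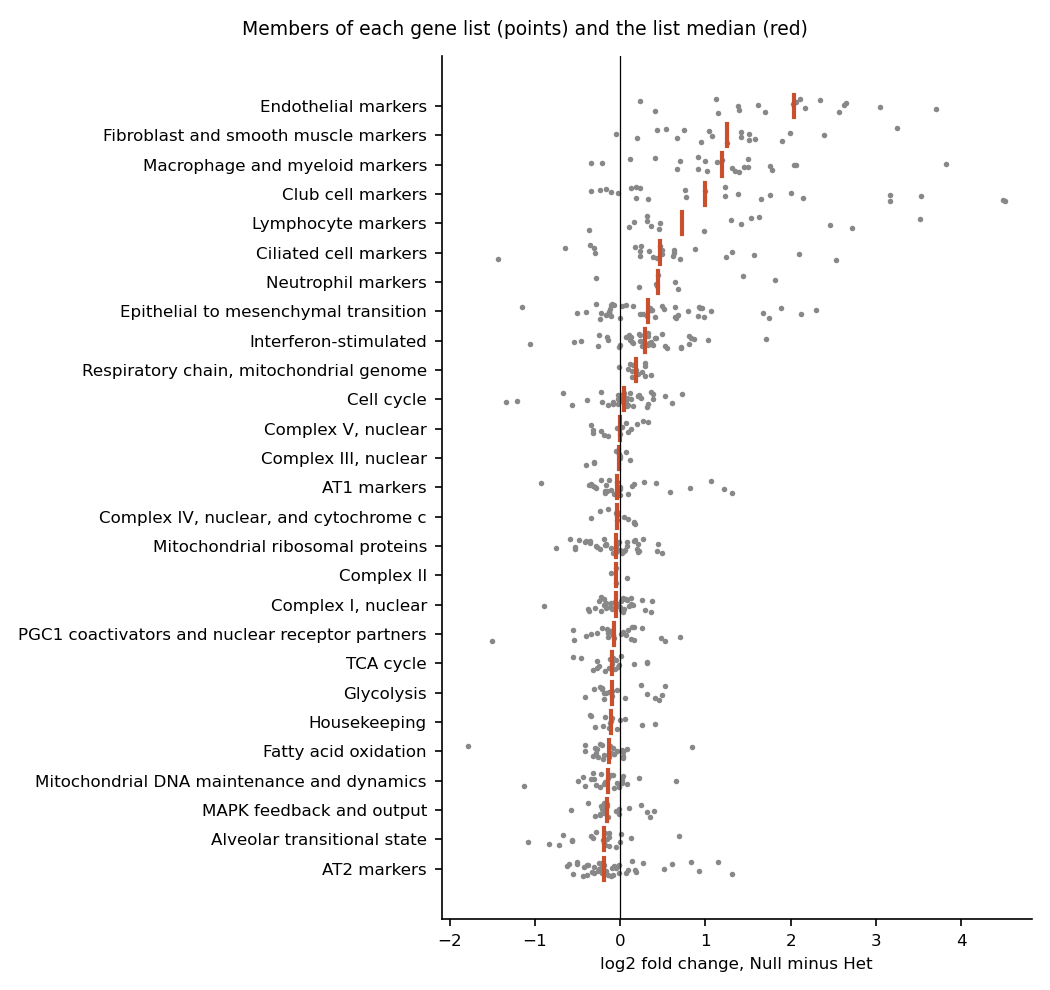
Each grey point is the log2 fold change (PGC1αNull minus PGC1αHet) of 1 tested gene of a list, and the red bar is the median of that list. Endothelial markers have the highest median (2.04), nuclear respiratory chain lists lie near 0, and AT2 markers have the lowest median of the lists shown (-0.19).

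Over all genes with a mean of at least 40, list members included, the 10 with the smallest p among those higher were *S1pr1*, *Ptprb*, *Aqp1*, *Scgb1a1*, *Tspan7* (1.97), *Pltp* (2.13), *Tek*, *Slc6a6* (1.06), *Gvin1* (1.64) and *Scgb3a2*. The place of *Scgb3a2* in this order supports nothing, since it met even the mean of 10 through the PGC1αNull libraries alone, and *S1pr1*, *Aqp1* and *Tek* had PGC1αHet means above 10 but under 40 and entered the order the same way. *Slc6a6*, the taurine transporter, had 576, 617, 716, 834 and 573 normalized counts in PGC1αHet and 1524, 1234, 1483 and 1266 in PGC1αNull libraries, the tightest of the 10 (log2 fold change 1.06, SE 0.19, adjusted p = 0.216 with limma). The groups stood well apart for it, with SDs of 112 and 148.

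Lower genes reached smaller sizes and weaker evidence. *Ndst2*, which sulfates heparan chains and heparin (chr14:20723730-20734570), had 241, 229.8, 151, 213 and 270.0 normalized counts in PGC1αHet and 56.3, 139, 62.4 and 98.0 in PGC1αNull libraries. No library crossed over, and the log2 fold change was -1.37 (SE 0.31, adjusted p = 0.476 with limma). *Notch1*, the receptor (chr2:26457902-26503822), had 828, 971, 869.6, 864 and 767 against 585, 509.8, 485 and 477. The gap was narrow in size but wide against the spread, with a log2 fold change of -0.74 (SE 0.18, adjusted p = 0.541 with limma). *Chpf2*, a chondroitin polymerizing factor, was at -1.07, and *Ssh1*, a phosphatase that activates cofilin, at -0.73. *Dcaf17* (-1.14), *Hemk1* (-1.09), *Zc2hc1a* (-0.89), *Bub1b*, *Ska2* (-0.81), a kinetochore protein, and *Ss18l2* (-1.36) completed the 10, all without overlap. Another 2 symbols of predicted genes or pseudogenes ranked among them and were only counted.

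The effect of PGC1α loss was set beside that of PI3Kα activation in BRAFV600E-driven tumors, measured in 14 other libraries, taken 2 to 12 weeks p.i. (6 of *Braf* CAT/+ and 8 of *Braf* CAT/+; *Pik3ca* HR/+ mice), that share none with this comparison and were normalized separately. There limma called 4 of 17558 genes (0.0228%). *Ppargc1a* was at -1.92 (SE 0.45, unadjusted p = 0.000652, adjusted p = 0.225 with limma) with PI3Kα activation and -1.51 with PGC1α loss, and the difference of 0.42 had an unadjusted p of 0.575. Of 16055 genes tested for a difference between the effects, 567 had an unadjusted p under 0.05 (3.53%) and 1 was called (0.00623%), *Mettl7a2*. That gene was at -0.36 with PGC1α loss (unadjusted p = 0.709) and 4.77 with PI3Kα activation, for a difference of -5.13 (adjusted p = 0.0408 with limma). With the 12-week libraries alone the difference was -4.94 (adjusted p = 0.888 with limma), and with sex as a term, a fit added after seeing the data, it was -4.60 (adjusted p = 0.195 with limma), where 0 genes were called and 4 were in the PI3Kα comparison itself.

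Sex was unbalanced between those genotypes, and neither sex nor week was a term of the fits printed here, except where sex is named as a term. Side by side, AT2 markers had a median of -0.96 with PI3Kα activation and -0.19 with PGC1α loss, club cell markers 0.08 and 0.99, and endothelial markers 0.89 and 2.04. *Dlk1*, a Notch ligand relative, was at -4.34 with PI3Kα activation and 0.51 with PGC1α loss (difference 4.85, unadjusted p = 0.000940). *Sox9*, a factor of distal lung progenitors, was at -2.03 and 0.47 (difference 2.50, unadjusted p = 0.000815). *Scgb1a1* was at -0.16 and 3.16 (difference 3.32, unadjusted p = 0.00138), and *Ndst2* at 1.21 and -1.37 (difference -2.58, unadjusted p = 0.000707). None of these 4 differences passed the adjusted threshold, with adjusted p of 0.943 or more. With sex as a term they were 3.86 for *Dlk1*, 2.03 for *Sox9*, 3.43 for *Scgb1a1* and -2.85 for *Ndst2*, with adjusted p of 0.732 or more.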

How the data were processed

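The signal values deposited by the authors are gene-level Salmon estimates normalized by DESeq2 over the 9 libraries together (Nugen Ovation Ultralow V2 libraries of RNA from sorted cells, sequenced as single-end reads). Per the labels' processing notes the build was GRCm38. The annotation and tool versions are not given in the sources used here. Between 5.61% and 7.76% of values under 20 were whole multiples of a library's commonest step (tolerance 0.001), so reads could not be recovered, depth in reads is unknown, and tests for whole counts were not run. The authors' comparison tables hold fold changes, standard errors, Wald statistics and p-values and were not used.

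log2(normalized count + 1) was fitted on genotype with limma 3.58.1 (R 4.3.3; trend, moderated variance, two-sided) for genes with a mean of at least 10, with Benjamini-Hochberg adjustment over 17424 genes and a threshold of 0.05. The script was tested on simulated data. Single genes were also compared by the two-sided exact permutation test. The 2 tables were normalized separately, so effects and not levels were compared across them, with genotype alone in the PI3Kα fit and a mean for each genotype in the difference of effects. Week and sex were not terms there. Of the genes tested, 170 share identical values with another symbol in all 9 libraries.

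The samples, the 37 gene lists (867 symbols, 6 of them not in the table, written from general knowledge) and the tests were chosen with earlier results of these data known. Genes named are *Ppargc1a*, its relatives and nuclear receptor partners, AT2 and airway genes of the study, markers that check the cell type, the 10 smallest p-values in each direction with a mean of at least 40, and at most 4 genes of each list with the smallest p. Alternatives were a pseudocount of 4, a mean of at least 40, no filter, quantile normalization, a replicate block, a term for sex, identical values counted once, library weights, no variance trend and each library left out. Added after seeing the data were leaving out the 3 libraries with over 10% of counts in *Gm10800* and, for the PI3Kα comparison and the difference of effects, a term for sex. Permutations and figures were made in Python 3.11.15 (scipy 1.17.1, numpy 2.4.6, matplotlib 3.10.9 and pandas 2.3.3).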

Additional observations from a re-analysis of the deposited data

Results flagged for a closer look

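In 274 groups of 4 or 5 libraries, 14 held a library that stood apart from the others of its group by Dixon's criterion, where chance gives about 1 in 20. Values are log2(normalized count + 1) or, for a list, its mean. PGC1αNull library 2 accounted for 6 of them and stood high each time: *Thra* (7.45 against at most 7.07), *Zc2hc1a* (7.45 against 6.87 to 6.96), *Mfap4*, a matrix protein (8.57 against 6.15 to 6.38), complex II (9.05 against 8.49 to 8.56), lung lineage transcription factors (8.73 against 8.48 to 8.51) and fibroblast and smooth muscle markers (7.10 against 5.78 to 5.81). PGC1αNull library 4 was low for *Nr1h3* (5.36 against 6.26 to 6.34) and high for *Zeb1* (8.33 against 7.47 to 7.58).

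Among PGC1αHet libraries, library 1 was low for *Ppard* (7.16 against 8.04 to 8.33) and *Perm1* (4.70 against 6.20 to 6.51), library 2 high for *Zeb1* (7.35 against 6.50 to 6.63) and library 4 high for *Rxrb* (7.31 against 6.62 to 6.80). Library 3 was at 0.0 for *Upk3b* (3.02 to 3.44 in the others) and high for erythroid markers (7.20 against 4.88 to 5.26).

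The effect of PGC1α loss and that of PI3Kα activation differed for *Mettl7a2* by -5.13 log2 units (limma adjusted p = 0.0408), and by -4.60 with sex as a term (adjusted p = 0.195). Its normalized counts in the 9 libraries here ran from 2.66 to 63.8 in PGC1αHet and from 3.36 to 17.2 in PGC1αNull.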

How the results depend on the processing

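No gene was called under 17 of the alternatives, including each library left out in turn. Library weights called 3 (*S1pr1* at 2.63, *Ptprb* at 2.65 and *Aqp1* at 2.97), and leaving out the 3 libraries rich in *Gm10800* called 1, *Ighg2c*, whose log2 fold change was 8.00 there (adjusted p = 0.0443) and 4.82 with all libraries. The cause was not tested. The count at an unadjusted p under 0.05 was 667 and ran from 501 (without PGC1αHet library 3) to 999 (without PGC1αNull library 2) with single libraries left out. It was 498 without the 3 libraries rich in *Gm10800*, and 1280 with no filter, where 33095 genes were tested. Of these 925 were higher, against 283 at a mean of at least 40, where 12727 genes were tested. The exact p of *Ppargc1a* ran from 0.0286 to 0.0714 with each library left out, and was above 0.05 for 7 of them, with fewer libraries in each test. Without the 3 libraries rich in *Gm10800*, *Pdk4* was at 0.03, *Itgb6* at 0.16, *Mrpl22* at 0.23, neutrophil markers at a median of 0.94 and housekeeping genes at 0.18. The difference from the PI3Kα effect, called for 1 gene (*Mettl7a2*), was called for 0 with sex as a term. Of 139 named genes with an unadjusted p of 0.05 or more, 52 changed sign under at least 1 alternative. Same-numbered libraries of the 2 groups correlated at 0.211, -0.213, 0.145 and -0.467, so they share only a number. A replicate block called 0 genes, with 583 at an unadjusted p under 0.05. It put *Ppargc1a* at -1.11 and the AT2 median at -0.26, the same values as without PGC1αHet library 5. That library has no same-numbered PGC1αNull library, so these values do not show an effect of the block itself. With 4 and 5 libraries, the distance from a log2 fold change to either end of its 95% interval had a median of 0.83, and single genes were more or less precise than that.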
